A study of Mus musculus with 14 samples.

Results

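Plek2, Ptp4a3, Zbtb46 and Slc9a3r2 are 4 of the 35275 genes in a deposited count table from mouse carotid arteries. They were chosen by gene name because each had more RNA in every endothelial library of Poldip2 knockout mice than in any endothelial control library. The values of that contrast therefore chose the genes, and they are given below as a description with no test. The 14 RNA-seq libraries came from C57BL/6 mice 10 weeks old. The lumen of the carotid arteries was flushed with 150 µL of Qiazol, a phenol-based lysis reagent, which gives an endothelial-enriched RNA, and a further RNA was taken from the left-over artery with its media and adventitia. In the endothelial fraction, 4 libraries carried the genotype Poldip2 EC knockout (Poldip2-EC-/- in the titles) and 4 the genotype Littermate Control (Poldip2-floxed). In the left-over fraction, 4 libraries were labelled Poldip2 SMC Knockout (Poldip2-SMC-/-) and 2 were labelled Littermate Control (Poldip2-floxed). No source used here names the promoter that drives Cre or an inducing agent. The fraction is a flush and not a sort, so RNA of other vessel wall cells can be in it.

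Poldip2 encodes a protein first found as a partner of a DNA polymerase subunit and later tied to reactive oxygen production and to mitochondrial metabolism in vascular cells. The 4 genes have separate functions. Plek2 (pleckstrin 2) binds the lipid products of phosphoinositide 3-kinase at the membrane, helps to remodel the actin cytoskeleton and is best known from maturing red cells. Ptp4a3 (PRL-3) is a lipid-anchored phosphatase of the PRL family, which binds CNNM magnesium transporters and is known as a target of VEGF signalling in endothelial cells. Zbtb46 is a BTB zinc finger transcription factor that marks conventional dendritic cells and is also made by vascular endothelium. Slc9a3r2 (NHERF2) is a PDZ scaffold that ties membrane proteins such as podocalyxin to ezrin, radixin and moesin, the ERM proteins of the cell cortex.

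The 4 genes lie on 4 chromosomes. In the deposited table, whose coordinates are those of GRCm38, Plek2 (ENSMUSG00000021118) spans chr12:78888691-78906964 on the - strand and Ptp4a3 (ENSMUSG00000059895) chr15:73723145-73758766 on the + strand. Zbtb46 (ENSMUSG00000027583) spans chr2:181387762-181459426 and Slc9a3r2 (ENSMUSG00000002504) chr17:24639282-24650305, both on the - strand. All are protein-coding, and in the GENCODE M21 annotation none shares exon bases with another gene. Ptp4a3 and Zbtb46 each contain 1 small nuclear RNA gene on their own strand, outside their exons.

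Promoter sequences are shown because each gene was chosen for a higher level in the same knockout libraries. RefSeq (GRCm38.p6) start sites were at hand for 3 of the 4 genes, in 4 windows of 200 bases that run from 250 to 51 bases before the start and touch no annotated exon or UTR. The Plek2 window is chr12:78906989-78907188, the Zbtb46 window chr2:181424439-181424638, before a start inside the gene, and the Slc9a3r2 windows are chr17:24650356-24650555 and chr17:24645008-24645207, the second before a start inside the gene. All are printed 5′ to 3′ on the - strand, which is the strand of the gene. Capitals mark matches on either strand to 6 short motifs. The GC box was searched as GGGCGG. The box bound by Klf factors was searched as CACCC, and the core of ETS sites as GGAAG. The letters for Gata factors were AGATAA, those for the E-box were CACGTG, and those for AP-1 were TGANTCA.
Plek2: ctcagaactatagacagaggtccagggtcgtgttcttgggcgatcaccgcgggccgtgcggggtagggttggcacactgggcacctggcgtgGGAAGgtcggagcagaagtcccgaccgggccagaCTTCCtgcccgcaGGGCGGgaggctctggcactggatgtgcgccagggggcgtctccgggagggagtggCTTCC
Zbtb46: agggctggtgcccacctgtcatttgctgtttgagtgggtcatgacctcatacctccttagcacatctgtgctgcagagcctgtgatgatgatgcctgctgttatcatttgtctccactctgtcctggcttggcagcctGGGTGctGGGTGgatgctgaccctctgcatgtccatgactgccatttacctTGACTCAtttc
Slc9a3r2, outer start: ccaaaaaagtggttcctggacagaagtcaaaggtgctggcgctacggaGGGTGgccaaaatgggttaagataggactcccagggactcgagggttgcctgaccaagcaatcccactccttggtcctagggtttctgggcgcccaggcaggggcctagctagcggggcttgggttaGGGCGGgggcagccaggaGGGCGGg
Slc9a3r2, inner start: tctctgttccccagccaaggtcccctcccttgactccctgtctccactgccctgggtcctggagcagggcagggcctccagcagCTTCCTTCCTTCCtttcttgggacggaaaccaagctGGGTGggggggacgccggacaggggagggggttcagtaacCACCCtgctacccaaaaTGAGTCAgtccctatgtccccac
The Plek2 window held 1 GC box and 3 ETS cores. The Zbtb46 window held 2 Klf boxes and 1 AP-1 match. The outer Slc9a3r2 window held 2 GC boxes and 1 Klf box, and the inner one 2 Klf boxes, 3 ETS cores in 1 overlapping run and 1 AP-1 match. No motif was in all 4 windows, and none held the Gata or E-box letters. Among 32851 windows of the same length before RefSeq starts, 24.6% held the GC box, 44.4% the Klf box, 55.0% the ETS core, 8.42% the Gata letters, 4.34% the E-box and 5.57% the AP-1 letters. The G and C content was 68.0% for Plek2, 53.0% for Zbtb46, and 62.0% and 62.5% for the outer and inner Slc9a3r2 windows, against a median of 51.5% over all windows.

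Library depth ran from 15019891 to 23287155 counts, with 23906 to 30145 genes detected. Poldip2 had 36.2, 24.99, 26.1 and 21.8 CPM (reads of the gene per library total after TMM scaling) in endothelial knockouts 1 to 4, against 46.6, 42.5, 50.4 and 60.8 CPM in endothelial controls 1 to 4. Its log2 fold change was -0.89 (SE 0.16), with no overlap, in the direction of the label and with an adjusted p of 0.270 (edgeR quasi-likelihood test, Benjamini-Hochberg over all genes tested). The authors' deposited log2 fold change for this contrast was -0.70, with an adjusted p of 0.000551 in their test, which is not named. In the left-over fraction Poldip2 had 52.6, 48.0, 71.6 and 72.7 CPM in the libraries labelled knockout, against 27.5 and 22.7 CPM in those labelled control, which goes against the labels (log2 fold change 1.29, SE 0.20, adjusted p = 0.00886 in the same test). In the authors' deposited table the mean of the left-over control matched, in 14805 of 14805 genes and within a tolerance of 1e-06, that of the 4 libraries labelled knockout. The mean that table gives for the left-over knockout was, however, equal to the average of labelled controls 1 and 2 for just 1 gene of 14253, and its fold changes for that fraction are not used here. Of the number codes in the sample descriptions, 3 stood both on endothelial controls and on left-over libraries labelled knockout. The left-over groups are therefore called labelled knockout and labelled control throughout. The labels name the libraries of a group repeats without saying whether they are separate animals, so p-values measure only the spread between these samples.

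In the endothelial fraction all 4 genes were between 1.41 and 1.61 times as high in knockouts as in controls, and no knockout library of any of them fell into the control range. That gap chose them. Of the 14800 genes tested, 295 (1.99%) were higher without overlap in knockouts and 213 (1.44%) lower without overlap. The edgeR test called 0 genes (0%) in this contrast at an adjusted p under 0.05, while 917 genes (6.2%) had an unadjusted p under 0.05 and DESeq2 called 65 genes. The median log2 fold change of all genes was 0.01, and 97.3 to 98.8% of genes lay below the 4 chosen ones. RNA from a flushed artery is a bulk sample, in which more cells of a type and more RNA per cell cannot be told apart.

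Plek2 had 164, 141, 150 and 134 CPM in endothelial knockouts 1 to 4, against 86.0, 79.3, 92.1 and 111 CPM in endothelial controls 1 to 4. Knockout 1 was the highest and control 2 the lowest, and the closest pair was knockout 4 and control 4. The means were 147 ± 13.05 CPM in knockouts and 92.0 ± 13.6 CPM in controls (SD, n = 4 each), and the fitted log2 fold change was 0.67 (SE 0.10). Per gene length Plek2 averaged 81.1 FPKM in knockouts and 50.4 FPKM in controls.

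Ptp4a3, the phosphatase, had 91.1, 78.3, 76.9 and 83.6 CPM in endothelial knockouts 1 to 4, against 57.5, 40.5, 55.6 and 50.0 CPM in controls 1 to 4. The gap between the lowest knockout, 3, and the highest control, 1, was the widest of the 4 genes at 0.42 on the log2 CPM scale. Its means were 82.5 ± 6.41 CPM in knockouts and 50.9 ± 7.62 CPM in controls (SD, n = 4 each), with a log2 fold change of 0.68 (SE 0.10).

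Zbtb46, the transcription factor, had 119, 116, 137 and 118 CPM in endothelial knockouts 1 to 4, against 89.6, 89.8, 79.7 and 83.8 CPM in controls 1 to 4. Knockout 3 stood above the other knockouts, which lay within 4 CPM of each other. The means were 122 ± 9.72 CPM in knockouts and 85.7 ± 4.91 CPM in controls (SD, n = 4 each), and the log2 fold change was 0.50 (SE 0.09), the smallest of the 4.

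Slc9a3r2, the scaffold, had 1623, 1364, 1602 and 1603 CPM in endothelial knockouts 1 to 4, against 1122, 801.7, 1020 and 1063 CPM in controls 1 to 4. Replicate 2 was the lowest library in both groups. Its means were 1548 ± 123 CPM in knockouts and 1002 ± 140 CPM in controls (SD, n = 4 each), and the log2 fold change was 0.62 (SE 0.11). Per gene length it was by far the most abundant of the 4, at 636 FPKM in knockouts and 410 FPKM in controls, against 18.9 and 11.6 FPKM for Ptp4a3 and 20.1 and 14.1 FPKM for Zbtb46. Its mean FPKM ranked 45 of 29057 detected genes in knockouts and 97 of 29799 in controls.

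**Figure D1:**
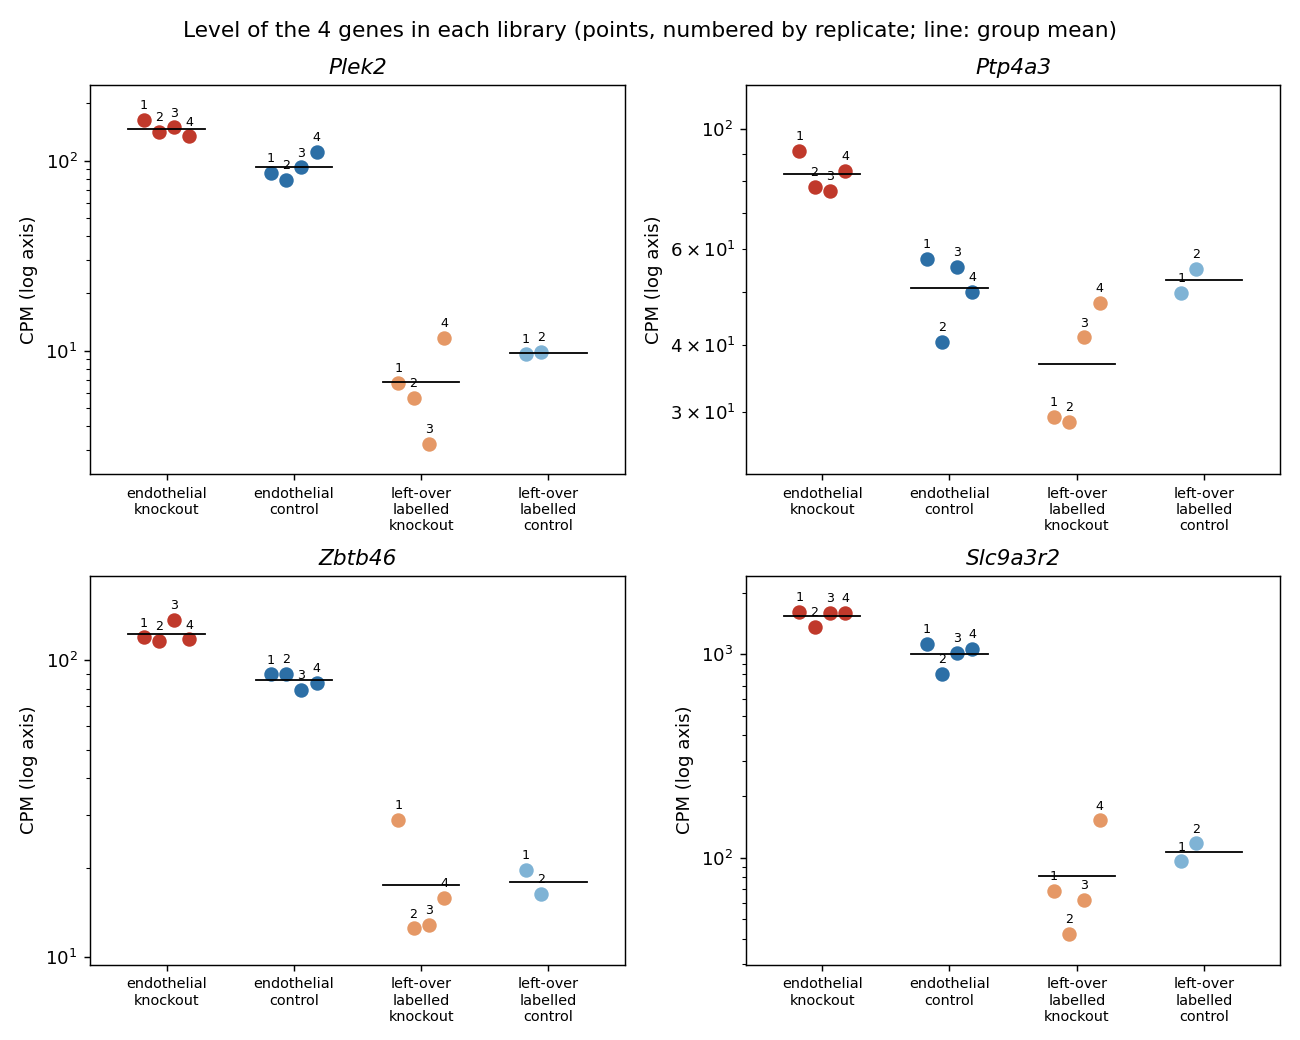
Level of each gene in CPM (log axis) in every library, grouped as endothelial knockout, endothelial control, left-over labelled knockout and left-over labelled control, with points numbered by replicate and a line at the group mean. The endothelial knockouts sit above the endothelial controls for all 4 genes, and only Ptp4a3 has left-over libraries in the endothelial control range.

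Genes at the edge of the no-overlap rule were picked for their small distances, which were thus far below those of the 4 genes. Among genes also higher in the endothelial fraction and nominally raised, Aim1 was just inside, with 92.96 CPM in its lowest knockout and 92.86 CPM in its highest control, followed by Orai1 with 137.7 CPM in its lowest knockout and 137.4 CPM in its highest control. Tagap1 was just outside, with 33.70 CPM in its lowest knockout and 33.71 CPM in its highest control, as was Fam65a with 253.3 CPM in its lowest knockout and 253.6 CPM in its highest control. In all, 195 genes (1.32%) were higher without overlap and had an unadjusted p under 0.05, and 45 of them were also called higher in the endothelial fraction by a log2 fold change of 1 or more. Of the 42 named genes among these 45, Zbtb46 had the widest gap, Slc9a3r2 the third and Plek2 the fifth. The same contrast chose the genes, so these ranks are a description and lend no support. Ptp4a3 was not in this pool, as it was not called between the fractions. Podxl, which encodes the NHERF2 partner podocalyxin, was in the same pool with 1325 CPM in its lowest knockout and 1213 CPM in its highest control.

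Plek2 stood in the same order as Poldip2 within the knockouts (1, 3, 2, 4 from the highest) and within the controls (4, 3, 1, 2), and the other 3 genes stood in other orders. Knockout 1 kept the most Poldip2 RNA of the knockouts, at 72.4% of the control mean, and had the highest Plek2, Ptp4a3 and Slc9a3r2. Knockouts 2, 3 and 4 were at 49.9, 52.2 and 43.5% of the control mean for Poldip2. Within groups, as deviations from the group mean over the 8 endothelial libraries, Plek2 and Poldip2 had a Pearson r of 0.91 and a Spearman rho of 0.90 (r = 0.85 without the 2 libraries farthest from the median). This sign is opposite to the difference between groups, where knockouts had more Plek2 and less Poldip2. With the scores of the cell type marker lists, the same r of Plek2 ran from -0.09 (lymphocyte) to 0.79 (smooth muscle). That of Ptp4a3 ran from 0.08 (adipocyte) to 0.79 (erythroid, with a Spearman rho of 0.90). The range was -0.44 (endothelial) to -0.01 (conventional dendritic) for Zbtb46 and -0.07 (adipocyte) to 0.68 (endothelial) for Slc9a3r2. For Ptp4a3, Zbtb46 and Slc9a3r2 the r with Poldip2 was 0.42, -0.18 and 0.41, and 0.44, 0.03 and 0.0057 without the 2 farthest libraries. Between the 4 genes themselves r ran from -0.39 for Ptp4a3 with Zbtb46 to 0.83 for Ptp4a3 with Slc9a3r2, and the value for that second pair was 0.40 without the 2 farthest libraries. For Zbtb46 with Slc9a3r2 it was -0.0025, and 0.66 without the 2 farthest, so the values of these last 2 pairs rest on the libraries left out. These values share the same 8 libraries and the same scaling and are a description.

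**Figure D2:**
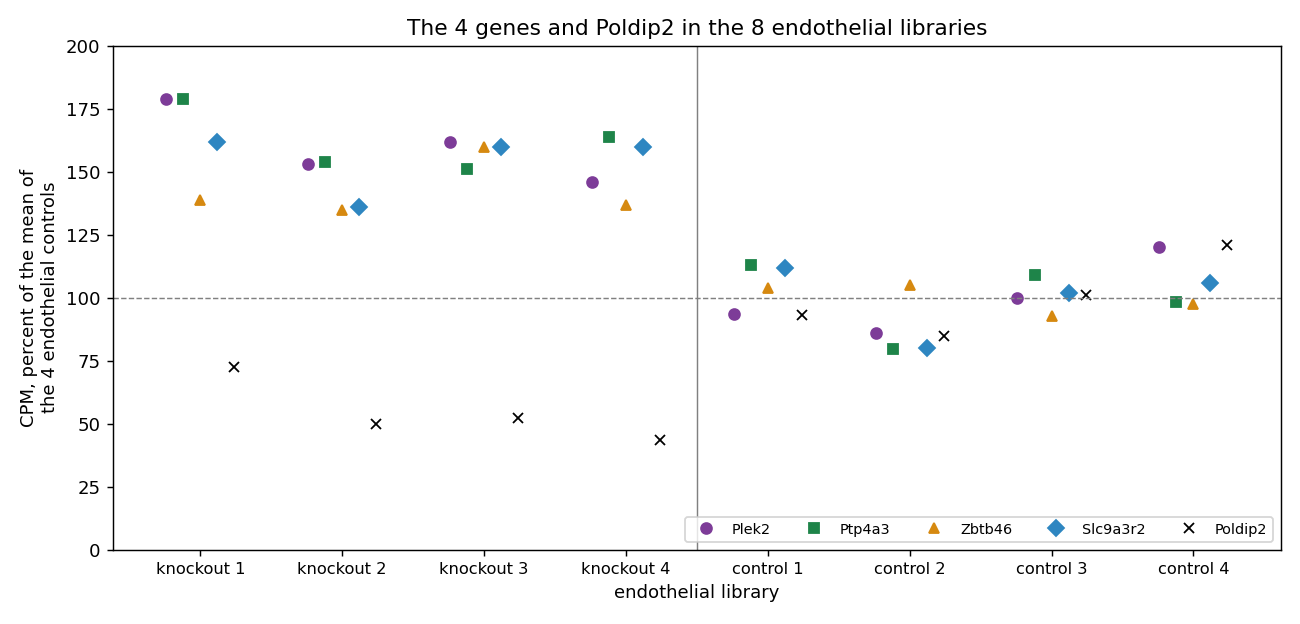
CPM of the 4 genes and Poldip2 in the 8 endothelial libraries, as a percent of the mean of the 4 endothelial controls, with knockouts on the left and a dashed line at 100%. The 4 genes lie at 135 to 179% in knockouts, and Poldip2 lies at 43.5 to 72.4%, highest in knockout 1.

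Marker levels of the cell types in the flush were compared beside the contrast that chose the genes. The endothelial marker score, the mean log2 CPM of 20 genes such as Pecam1 and Cdh5, was 8.56 to 8.75 in knockouts and 8.42 to 8.69 in controls. Summed, these markers took 21770 to 24315 CPM in knockouts and 20053 to 24725 CPM in controls. The smooth muscle score over 16 genes was 3.71 to 4.23 in knockouts and 3.38 to 3.67 in controls, without overlap, and the summed level was 695 to 974 CPM in knockouts and 607 to 708 CPM in controls. Of the 14 smooth muscle genes tested, 4 were higher without overlap (Myh11, Actg2, Cnn1 and Myl9), beside 1.99% of all genes tested. Their median log2 fold change was 0.65, beside 0.01 over all genes, with 11 of 14 positive, and none passed the edgeR test. The fibroblast score was 5.11 to 7.29 in knockouts and 6.57 to 7.69 in controls, with knockout 1 and control 3 the highest of their groups, and summed levels of 1979 to 5307 CPM in knockouts and 3642 to 7139 CPM in controls. The clock score, the Bmal1 side minus the Dbp side, was -3.11 to -1.22 in knockouts and -1.80 to 0.33 in controls. No marker of these lists was at 0 in all libraries of a group. Erythroid markers summed to 201 to 1452 CPM in knockouts and 321 to 889 CPM in controls, with overlap. Their score was highest in knockout 1, at 4.55. Adipocyte markers summed to 9.34 to 521 CPM in knockouts and 11.8 to 189 CPM in controls, macrophage markers to 225 to 964 CPM in knockouts and 335 to 674 CPM in controls, and lymphocyte markers to 10.8 to 15.8 CPM in knockouts and 9.69 to 24.4 CPM in controls, all with overlap. The part of these shifts in the differences of the 4 genes was not tested.

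With the smooth muscle score as a covariate the log2 fold change of Plek2 was 0.36 (SE 0.13), in place of 0.67. Ptp4a3 had 0.56 (SE 0.18), Zbtb46 0.60 (SE 0.16) and Slc9a3r2 0.56 (SE 0.19). That score did not overlap between the groups, so this fit cannot fully separate it from the genotype. With the fibroblast score instead, the log2 fold changes were 0.75 for Plek2, 0.81 for Ptp4a3, 0.42 for Zbtb46 and 0.67 for Slc9a3r2. Scaled to the endothelial markers, the log2 fold changes were 0.62 for Plek2, 0.63 for Ptp4a3, 0.44 for Zbtb46 and 0.56 for Slc9a3r2. Without control 3 and knockout 1, they were 0.59, 0.66, 0.45 and 0.58 in the same order of genes.

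**Figure D3:**
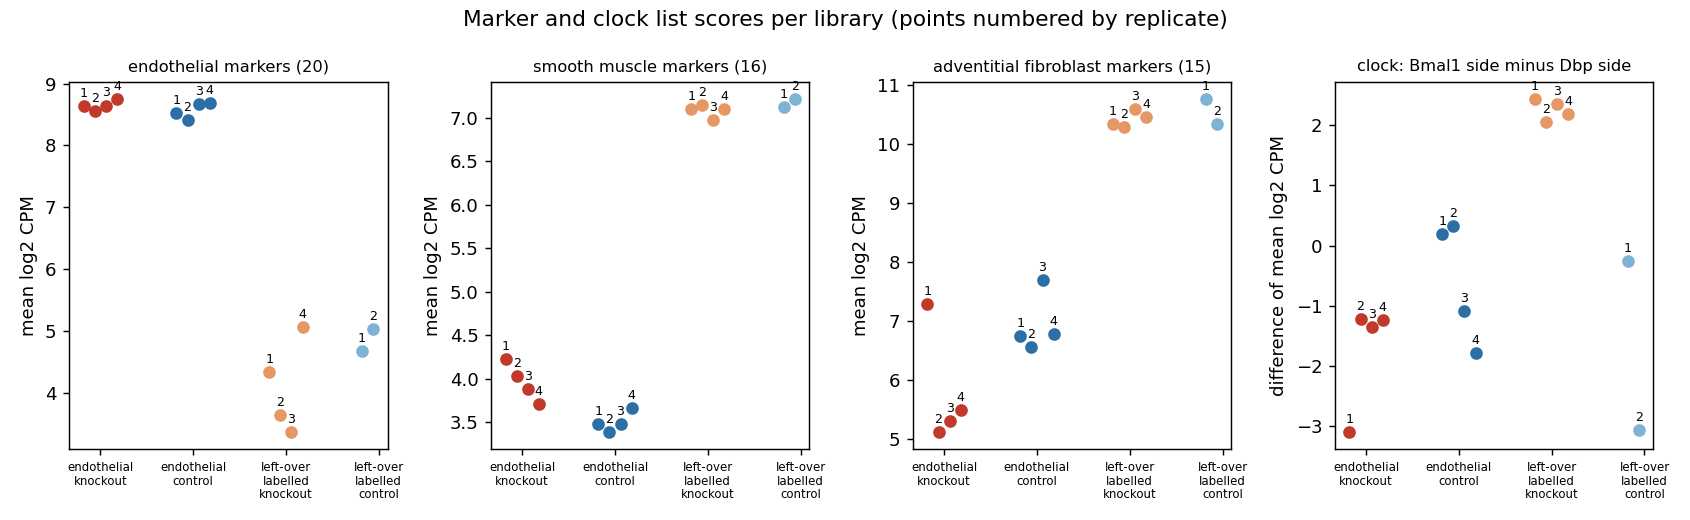
Mean log2 CPM of the endothelial, smooth muscle and adventitial fibroblast marker lists, and the clock score (Bmal1 side minus Dbp side), in every library, with points numbered by replicate and groups as endothelial knockout, endothelial control, left-over labelled knockout and left-over labelled control. Smooth muscle scores of 3.71 to 4.23 in endothelial knockouts lie above the 3.38 to 3.67 of endothelial controls, and all are below the left-over libraries.

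The left-over fraction was not used to choose the genes. It gives a look at them in libraries whose labels are in doubt and whose mice were to lack Poldip2 in another cell type. Of the number codes on its labelled knockouts, 3 also stand on endothelial controls, which the rule used. What a code marks is not stated, so this look may not be separate from the choice. None of the 4 genes (0 of 4) passed the edgeR test in the left-over fraction, against a background of 162 of 20442 genes called (0.792%). Ptp4a3 alone (1 of 4) had an unadjusted p under 0.05, as did 10.4% of all genes tested, and DESeq2 called none of the 4. The point estimates of Plek2, Ptp4a3 and Slc9a3r2 were below 0, and that of Zbtb46 was close to 0.

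Ptp4a3 had 29.4, 28.8, 41.2 and 47.8 CPM in libraries 1 to 4 labelled knockout, against 49.9 and 55.2 CPM in libraries 1 and 2 labelled control. The groups did not overlap, though labelled knockout 4 lay close to labelled control 1. Its log2 fold change was -0.51 (SE 0.20), with an unadjusted p of 0.0198 and an adjusted p of 0.338 by edgeR, and 10.5% of all genes tested were lower and 8.56% higher without overlap. An exact two-sided permutation test over the 15 arrangements of these libraries gave p = 0.133, where the smallest possible p is 0.0667, so the design cannot reach 0.05.

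Plek2 had 6.76, 5.60, 3.21 and 11.7 CPM in libraries 1 to 4 labelled knockout, against 9.63 and 9.81 CPM in those labelled control. Labelled knockout 4 was above both labelled controls and the other labelled knockouts were below them. The log2 fold change was -0.50 (SE 0.39, edgeR adjusted p = 0.746), with an exact permutation p of 0.333. It was -0.88 without labelled knockout 4 and -0.26 without labelled knockout 3. Its counts here were 60 to 256 in libraries labelled knockout and 208 to 218 in those labelled control.

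Slc9a3r2 followed the same order of libraries at the top, with 68.5, 42.0, 62.1 and 152 CPM in libraries 1 to 4 labelled knockout, against 95.8 and 118 CPM in those labelled control. Its log2 fold change was -0.39 (SE 0.53, edgeR adjusted p = 0.878), with an exact permutation p of 0.4. Without labelled knockout 4 the log2 fold change was -0.88, with an edgeR adjusted p of 0.0273, so that 1 library decides whether Slc9a3r2 is called. Adjusted p over all alternatives for Slc9a3r2 ran from 0.0273 to 1.

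Zbtb46 had 28.9, 12.5, 12.8 and 15.8 CPM in libraries 1 to 4 labelled knockout, against 19.6 and 16.3 CPM in those labelled control. Labelled knockout 1 was the highest of all and the other 3 were below both labelled controls. Its log2 fold change was -0.02 (SE 0.33, edgeR adjusted p = 0.990), with an exact permutation p of 0.867, and its sign changed with the scaling, at 0.03 when only library size was used.

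Endothelial content varied between the left-over libraries. The endothelial score was 4.33, 3.64, 3.36 and 5.06 in libraries 1 to 4 labelled knockout, and 4.67 and 5.03 in those labelled control. Labelled knockout 4, with the highest endothelial score, also had the highest Plek2 and Slc9a3r2, and labelled knockouts 2 and 3, with the lowest scores, held the lowest 2 libraries of both Plek2 and Slc9a3r2. As a difference from the endothelial score, Plek2 lay at -1.63 to -1.13 in libraries labelled knockout and -1.72 to -1.39 in those labelled control. Slc9a3r2 lay at 1.75 to 2.60 in libraries labelled knockout and 1.85 to 1.91 in those labelled control. Both genes overlapped here, but they already overlapped in CPM, so this overlap shows nothing further. Ptp4a3, which had no overlap in CPM, lay at 0.53 to 2.01 in libraries labelled knockout and 0.76 to 0.97 in those labelled control. Zbtb46 lay at -1.06 to 0.53 and at -0.99 to -0.37 in the same order of groups. The part of endothelial content in these values was not tested. The highest Zbtb46 was in labelled knockout 1, whose endothelial score was in the middle. The clock score differed as well, at 2.05 to 2.44 in libraries labelled knockout and -3.07 and -0.25 in those labelled control, and its part in the values of the 4 genes was not tested.

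**Figure D4:**
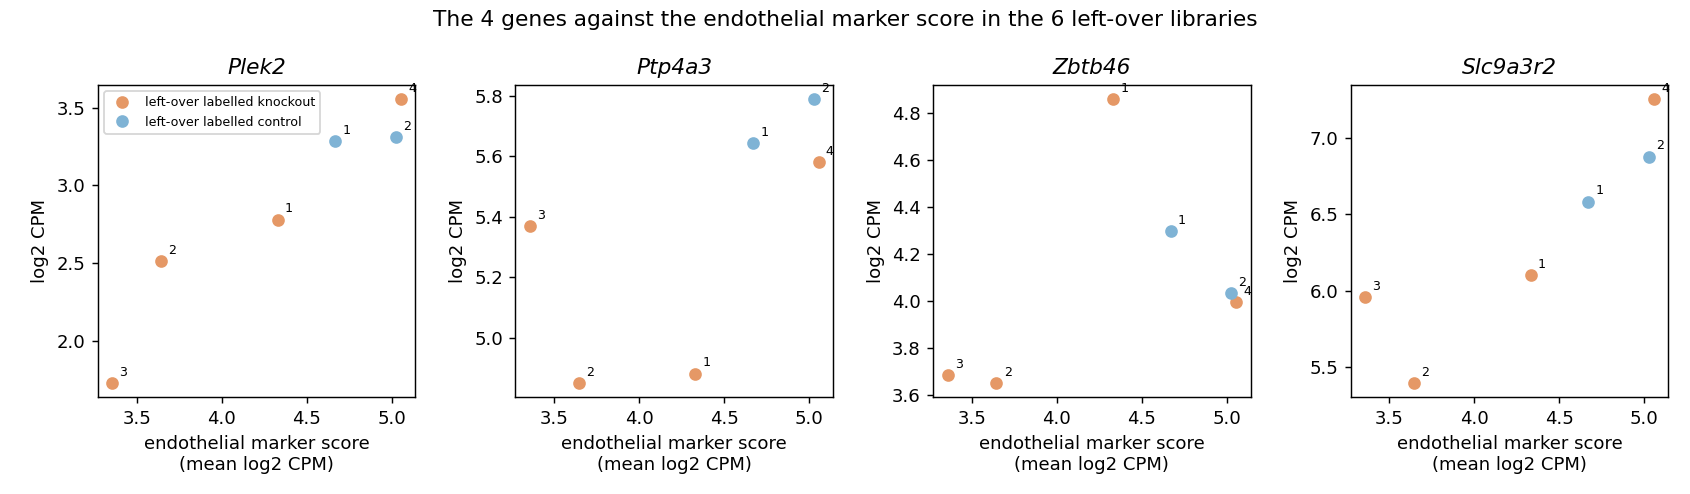
Log2 CPM of each gene against the endothelial marker score (mean log2 CPM of 20 markers) in the 6 left-over libraries, numbered by replicate within the labelled knockout and labelled control groups. Plek2 and Slc9a3r2 are highest in labelled knockout 4, at an endothelial score of 5.06, and Zbtb46 is highest in labelled knockout 1, at 4.33.

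Between the fractions, 3 of the 4 genes were higher on the endothelial side and 1 was not. Plek2, Zbtb46 and Slc9a3r2 were called higher in endothelial controls than in left-over libraries labelled control, against 34.6% of 18484 genes called higher and 31.1% called lower in that contrast, and Ptp4a3 was not called in either direction. This contrast shares the 4 endothelial control libraries with the rule that chose the genes, which favours genes that are low in them. A change of cell type and any effect of flushing itself cannot be told apart in it.

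Plek2 averaged 92.0 ± 13.6 CPM in endothelial controls (SD, n = 4) and 9.72 ± 0.13 CPM in left-over libraries labelled control (SD, n = 2). This is 8.78-fold higher (log2 fold change 3.13, SE 0.15, edgeR adjusted p = 4.49e-07). Slc9a3r2 averaged 1002 ± 140 CPM in endothelial controls and 107 ± 15.4 CPM in left-over libraries labelled control (SD, n = 4 and 2). It was 8.69-fold higher (log2 fold change 3.12, SE 0.18, edgeR adjusted p = 1.08e-06). Zbtb46 averaged 85.7 ± 4.91 CPM in endothelial controls and 17.9 ± 2.33 CPM in left-over libraries labelled control, 4.46-fold higher (log2 fold change 2.16, SE 0.12, edgeR adjusted p = 1.10e-06). For these 3 genes every endothelial control was above both left-over libraries, as for 40.7% of genes tested. The 20 endothelial markers were all called higher in the same contrast, with a median log2 fold change of 3.99 beside -0.05 over all genes tested.

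Ptp4a3 averaged 50.9 ± 7.62 CPM in endothelial controls and 52.6 ± 3.75 CPM in left-over libraries labelled control (SD, n = 4 and 2), and the libraries overlapped. Its log2 fold change was -0.16 (SE 0.13, edgeR adjusted p = 0.312). With library size alone as the scaling it was -0.50 (edgeR adjusted p = 0.0106), and against the 4 left-over libraries labelled knockout it was 0.36 (edgeR adjusted p = 0.0427), so neither the sign nor the call held. In the 3 pairs that share a description code, Ptp4a3 had 57.5, 40.5 and 55.6 CPM in endothelial controls 1, 2 and 3, against 47.8, 29.4 and 28.8 CPM in left-over libraries 4, 1 and 2 labelled knockout. It was higher in the endothelial library of each pair, and the labels do not say what a code marks. Scaling also moved the whole contrast: 52.6% of called genes were higher with TMM and 38.0% with library size alone, where the median of all genes was -0.38. Of the 4 genes, Ptp4a3 is thus the one for which these fractions give no steady call as an endothelial gene. By mean FPKM the 4 groups of Ptp4a3 stood in the order endothelial knockout 18.9, left-over labelled control 16.3, left-over labelled knockout 11.6 and endothelial control 11.6 FPKM, with overlap between the first pair and between the last pair. For Plek2, Zbtb46 and Slc9a3r2 the order was endothelial knockout, endothelial control and then both left-over groups, which overlapped each other.

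**Figure D5:**
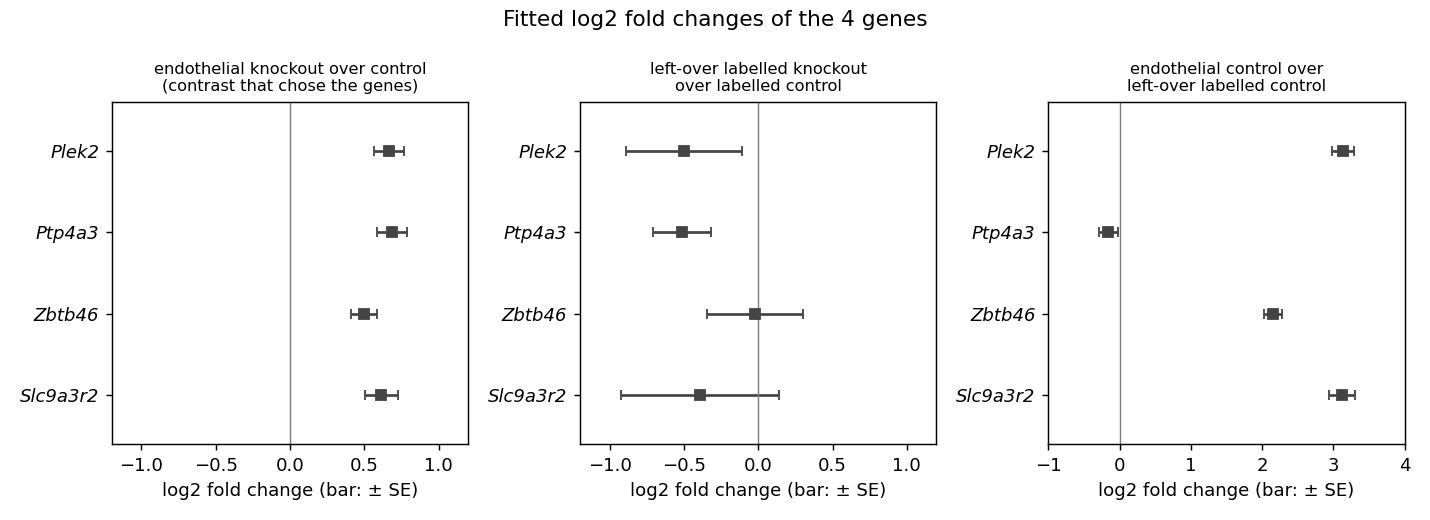
Fitted log2 fold changes (squares) with standard errors (bars) of the 4 genes for endothelial knockout over control, left-over labelled knockout over labelled control, and endothelial control over left-over labelled control, with a line at 0 and a wider axis in the right panel. Values of 0.50 to 0.68 in the contrast that chose the genes stand beside -0.51 to -0.02 in the left-over fraction and, in the fraction contrast, 2.16 to 3.13 for 3 genes and -0.16 for Ptp4a3.

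Close relatives and lists of genes around the 4 were measured in the same libraries. Every count of list genes called between the fractions below stands beside the 34.6% of all genes called higher and 31.1% called lower in endothelial controls against left-over libraries labelled control. Plek, the blood cell pleckstrin, was lower in endothelial controls than in left-over libraries labelled control (log2 fold change -3.19, SE 0.31, edgeR adjusted p = 5.66e-05), opposite to Plek2. Slc9a3r1 (NHERF1) was higher in endothelial controls (0.62, SE 0.15, edgeR adjusted p = 0.00566), at 11.8 FPKM there beside 410 FPKM of Slc9a3r2. Ptp4a1 and Ptp4a2, the other PRL phosphatases, had log2 fold changes of 0.01 and 0.12 and were not called. Between endothelial knockouts and controls the log2 fold changes of these 4 relatives ran from -0.05 to 0.23, and all overlapped.

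A list of 16 phosphoinositide 3-kinase and actin genes around Plek2 had none called in endothelial knockouts against controls. Its median log2 fold change was 0.02, beside 0.01 over all genes. Its gene with the smallest p was Pdpk1, the kinase that acts on Akt, at -0.27 (SE 0.12, edgeR adjusted p = 0.804). None of its 16 genes was called between the left-over groups either. In the fraction contrast 7 rose and 6 fell of 16, beside 34.6% and 31.1% of all genes. Pik3r3, a regulatory subunit, had 2.27 and Pik3cg, the catalytic subunit of leukocytes, -3.25. Pik3c2b, a phosphoinositide 3-kinase outside the list, was higher without overlap in endothelial knockouts, as were 1.99% of genes tested. It had 54.9 CPM in its lowest knockout and 46.3 CPM in its highest control (log2 fold change 0.61, SE 0.12). Between the fractions Pik3c2b rose by 2.68 on the log2 scale.

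The PRL phosphatase and CNNM list had none of 5 genes called in endothelial knockouts against controls (median -0.10), and none of 6 in the left-over groups. In the fraction contrast Cnnm4 rose (1.12, SE 0.27) and Cnnm2 fell (-0.68, SE 0.23), out of 5 tested, 1 in each direction beside the same 34.6% and 31.1%. The VEGF response list, in which Ptp4a3 would stand, had none of 10 genes called in endothelial knockouts against controls (median -0.26). The receptor Nrp1 was lower without overlap, at -0.48 (SE 0.12, edgeR adjusted p = 0.638), and the transcription factor Mef2c higher without overlap, at 0.35 (SE 0.11, edgeR adjusted p = 0.701). Neither passed the test. In the fraction contrast 5 of its 12 genes rose, among them the Notch ligand Dll4 at 4.38, and 5 fell, among them Angpt2 at -1.72, beside 34.6% and 31.1% of all genes.

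A list of 14 BTB zinc finger genes other than Zbtb46, a part of the family, had none called in endothelial knockouts against controls (median -0.07). None of the 14 was called between the left-over groups. In endothelial controls against left-over libraries labelled control, 10 of 14 rose and none fell (median 1.14). This stands beside 34.6% and 31.1% of all genes and a median of -0.05, and the endothelial factor Bcl6b led at 3.87 (SE 0.40). Zbtb7c, of the same family but outside the list, was higher without overlap in endothelial knockouts, as were 1.99% of genes tested. It had 24.9 CPM in its lowest knockout and 20.5 CPM in its highest control (log2 fold change 1.15, SE 0.30). Between the fractions Zbtb7c rose by 1.82 on the log2 scale. Conventional dendritic cell genes were examined because Zbtb46 marks those cells. Of 9 tested in endothelial knockouts against controls none was called and 1 had a positive log2 fold change (median -0.52). Their summed level was 46.3 to 676 CPM in endothelial knockouts and 98.7 to 686 CPM in endothelial controls. In the fraction contrast Irf8, Cd209a and Batf3 fell and Clec9a rose, of 11 tested, and none of 12 was called between the left-over groups.

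The ERM and scaffold list around Slc9a3r2 had none of 6 genes called in endothelial knockouts against controls (median 0.07). Podxl was higher without overlap, at 1471 CPM on average in knockouts and 1136 CPM in controls (log2 fold change 0.36, SE 0.09, edgeR adjusted p = 0.638), and did not pass the test. Ezr, Msn and Rdx had 0.12, 0.06 and -0.02. In endothelial controls against left-over libraries labelled control 6 of 7 rose and 1 fell, beside 34.6% and 31.1% of all genes. Podxl rose by 4.23, Ezr by 1.93 and Msn by 1.36 on the log2 scale, and Slc9a3, the sodium-proton exchanger after which the scaffold was named, fell by 1.88. None of 8 was called between the left-over groups.

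Genes known to be raised by laminar flow had none of 9 called in endothelial knockouts against controls (median -0.08). Nos3, the endothelial nitric oxide synthase, was higher without overlap at 657 CPM on average in knockouts and 500.2 CPM in controls (log2 fold change 0.38, SE 0.10, edgeR adjusted p = 0.638), while Klf2 and Heg1 had 0.03 and -0.08. Klf4 had -0.42 there (SE 0.18, edgeR adjusted p = 0.802). Between the left-over groups Klf4 rose (0.94, SE 0.20, edgeR adjusted p = 0.0412), and the other 8 were not called. In the fraction contrast 6 of 9 rose, beside 34.6% of all genes, among them Klf2 at 3.19, and Hmox1 fell by 3.23. The erythroid list, relevant to Plek2 in red cells, had none of 6 genes called in the fraction contrast (median 0.06) and none of 6 in endothelial knockouts against controls (median -0.10). Between the left-over groups none of 7 was called and 7 of 7 had a positive log2 fold change (median 1.21, beside 0.03 over all genes). Adipocyte markers had none of 12 called there and 1 of 12 positive (median -1.05), and the part of either list in the values of the 4 genes was not tested.

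The genes that varied most like each of the 4 within groups were also identified. Likeness was the Pearson r of log2 CPM deviations from the group mean over the 8 endothelial libraries, among 10026 genes with a mean of at least 5 CPM, and with so many genes some high values occur by search alone. For Plek2 the 3 closest were Wibg (0.99), Gpi1 (0.97) and Hdgf (0.97). For Ptp4a3 they were Rhno1 (0.99), Ttf1 (0.99) and Mapkbp1 (0.98). For Zbtb46 they were Ttc39b (0.94), Bcl6b (0.94) and Trmt44 (0.93), and for Slc9a3r2 Aup1 (0.99), Sbds (0.98) and Cnot10 (0.98). The log2 fold changes of these 12 genes in endothelial knockouts against controls ran from -0.26 for Trmt44 to 0.24 for Mapkbp1, and none was higher without overlap.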

How the data were processed

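Raw read counts per gene, deposited by the authors for 14 libraries, were the basis of every comparison. The authors also deposited FPKM values, which equal the count divided by gene length and library total (372153 of 372153 nonzero values, tolerance 0.001), and their own group means in FPKM, log2 fold changes and adjusted p-values. The submitters' processing notes name STAR 2.5, TopHat, STAR-Fusion, HTSeq 0.6.1, edgeR 3.16.5 and DESeq2 without their roles, and the build mm9, although the deposited coordinates match GRCm38. No source used here states the strandedness.

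Groups came from the labels. Each comparison was fitted on its own libraries in edgeR 4.0.16 (limma 3.58.1, R 4.3.3) and tested two-sided by quasi-likelihood, TMM scaling, robust dispersions and filterByExpr (minimum count 10, minimum total 15). P-values were adjusted by Benjamini-Hochberg across every gene tested, and genes called under 0.05. CPM shown by library used TMM over all 14 libraries, and log2 CPM a prior count of 2, so fitted and displayed changes can differ slightly. DESeq2 1.42.0 was an alternative. The code was tested on simulated data. No pair of libraries agreed within sampling noise (smallest chi-square per degree of freedom 8.79 over 91 pairs). The depth puts 3 counts, the limit a count of 0 allows at 95% confidence, at 0.129 to 0.1997 CPM, covering counting error only. The 4 genes and all gene lists were chosen with earlier results of these data known. Other genes named were the relatives of the 4, list genes, the 3 genes most like each, and those at the edge of the no-overlap rule. Podxl, Zbtb7c and Pik3c2b in the pool and the list genes given as examples were picked after their values were seen.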

Additional observations from a re-analysis of the deposited data

Results flagged for a closer look

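Zbtb46 in endothelial knockout 3 stood apart from the other 3 knockouts, at 137 CPM beside 116 to 119 CPM, with a gap of 0.832 of the whole range of the group. Slc9a3r2 in endothelial knockout 2 was low, at 1364 CPM beside 1602 to 1623 CPM, with a gap of 0.918 of the range. Both are single samples far from the others of their group, 2 of 12 groups looked at, where chance flags about 1 in 20 groups.

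By the labels, Ptp4a3 moved in opposite directions in the fractions. Ordered by the Poldip2 means of the groups it did not. The left-over group with a Poldip2 mean of 25.1 CPM had a Ptp4a3 mean of 52.6 CPM. The left-over group with a Poldip2 mean of 61.2 CPM had a Ptp4a3 mean of 36.8 CPM. Within groups this order was not kept. Over the endothelial libraries the r of Ptp4a3 with Poldip2 was 0.42. Labelled knockouts 3 and 4 had the most Poldip2 of their group (71.6 and 72.7 CPM) and the most Ptp4a3 (41.2 and 47.8 CPM). Labelled control 1 had more Poldip2 and less Ptp4a3 than labelled control 2. For Ptp4a3 every endothelial knockout was above every endothelial control. Every left-over library labelled knockout was below both libraries labelled control, with a log2 fold change of -0.512. The difference between these effects was not tested, the endothelial values chose the gene, and Poldip2 goes against the labels in the left-over fraction, so the direction there is that of the labels only.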

How the results depend on the processing

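Of 231 recomputed values, 195 were scored as kept. Fold changes had to keep their direction and either their side of the threshold or a place within the replicate spread. Counts of genes had to stay near the main count. In endothelial knockouts against controls all 4 genes stayed positive under 18 alternatives each, a direction that their choice fixes. Plek2 moved to 0.355 and Zbtb46 to 0.599 with the smooth muscle score as a covariate. The count of called genes, 0, became 14 without the low-count filter, 65 with DESeq2, 4 in a fit of all 14 libraries, 2 with the smooth muscle and 99 with the fibroblast score as covariate, and 97 without endothelial control 3 and knockout 1, an alternative chosen after seeing the data. With 1 library left out it ran from 0 to 20 (without knockout 1). The 295 genes higher without overlap became 1119 without control 3 and knockout 1, and 359 to 892 with 1 library left out, a rise that smaller groups bring by construction.

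Between the left-over groups Zbtb46 reversed to 0.0325 with library size alone and to 0.147 with the replicate block, and ran from -0.402 to 0.112 with 1 library left out. That block contrast rests on repeats 1 and 2 only, the numbers that both left-over groups hold. Slc9a3r2 ran from -0.879 (edgeR adjusted p = 0.0273, without labelled knockout 4) to -0.183 with 1 library left out, and had -0.938 with the replicate block (edgeR adjusted p = 0.103). The 162 called genes became 397 without the filter and 427 with DESeq2, and 41 (without labelled control 2) to 260 (without labelled knockout 4) with 1 library left out. In endothelial controls against left-over libraries labelled control, Ptp4a3 was -0.496 with library size alone and reversed to 0.355 with the libraries labelled knockout in place. It was 0.437 (edgeR adjusted p = 0.0172) with the 3 of those that share a description code with an endothelial control, and the code as a block, an alternative chosen after seeing the data. The cause of these moves was not tested.

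Libraries with the same repeat number share only that number. Their deviations correlated at -0.32 to 0.23 in the endothelial groups, at -0.05 and 0.37 in the left-over groups, and at -0.08 and 0.23 between the controls of both fractions. The 3 pairs with a shared description code correlated at 0.12, 0.11 and -0.26. The replicate block gave 2015 called genes in the left-over fraction, where Ptp4a3 had -0.81 (edgeR adjusted p = 0.00841), and 0 in the endothelial one, where the log2 fold change of Plek2 was 0.67. In the left-over fraction the numbers 3 and 4 stand only on libraries labelled knockout. The block contrast there thus rests on numbers 1 and 2, not on all libraries, with little left to measure the spread. Leaving out a labelled control leaves 1, which is then assumed to vary like the other group.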
